A study of Mus musculus with 9 samples.

Results

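The 7 Ms4a genes described here are Ms4a3, Ms4a4b, Ms4a4c, Ms4a6b, Ms4a6c, Ms4a6d and Ms4a7. They were taken by gene symbol from the deposited RNA table, where all 7 were found among 22942 rows. The study asked how transformation by MLL-AF9, a fusion protein found in acute leukemia, alters gene expression and DNA hydroxymethylation in mouse bone marrow mononuclear cells of strain B6.SJL, which carries the CD45.1 marker. The MLL-AF9 group received the retroviruses MSCVneo-MLL-AF9 and MSCVpuro, and the control group (written below as empty virus) MSCVneo and MSCVpuro without the fusion. Both groups thus carry MSCVpuro and a neo vector. PolyA RNA was sequenced from 3 MLL-AF9 and 3 control libraries. The age of the animals and the time between transduction and harvest are not given in the labels used here, nor whether libraries of a group came from separate animals.

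Ms4a genes encode small proteins that cross the membrane several times and lie side by side on mouse chromosome 19. The founding members are Ms4a1, which encodes the B cell protein CD20, and Ms4a2, the beta chain of the high-affinity IgE receptor of mast cells and basophils. Other members are known from myeloid cells. Ms4a3 (HTm4) marks granulocyte-monocyte progenitors, the Ms4a6 genes and Ms4a7 are known from monocytes and macrophages, and Ms4a4b is best known from mouse T cells.

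The authors' deposited table gave 1 pooled value per gene and group, taken as FPKM (mapped fragments scaled to transcript length and library size), with a p-value and a q-value. No error between libraries can therefore stand beside a level, and every p or q below is from the authors' deposited table. A gene was tested where the mean of both groups was at least 1 FPKM and called where its q-value was under 0.05. Log2 changes are log2 of (MLL-AF9 FPKM + 1) over (control FPKM + 1), which understates the change of low genes. The fusion's known targets Hoxa9, at 65.9 FPKM with MLL-AF9 and 0.876 FPKM with empty virus, and Meis1, at 42.6 and 1.68 FPKM, went with the labels. The leukocyte gene Ptprc (CD45) was at 142 FPKM with MLL-AF9 and 257 FPKM with empty virus (q = 0.451 in the authors' deposited table). Among genes tested, 68.7% had a positive log2 change and the median change was 0.29.

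Some members resemble each other in their start regions. The windows of Ms4a6c and Ms4a6b, and of Ms4a4b and Ms4a4c, are shown because each pair is a pair of close relatives of which 1 gene was called and 1 was not. Each window runs from 250 bases before to 50 bases after the transcription start, 5′ to 3′, as given by RefSeq for build GRCm38.p6. Capitals mark runs of at least 12 bases that are identical in the alignment of the pair.
Ms4a6c (chr19:11469118-11469417, plus strand): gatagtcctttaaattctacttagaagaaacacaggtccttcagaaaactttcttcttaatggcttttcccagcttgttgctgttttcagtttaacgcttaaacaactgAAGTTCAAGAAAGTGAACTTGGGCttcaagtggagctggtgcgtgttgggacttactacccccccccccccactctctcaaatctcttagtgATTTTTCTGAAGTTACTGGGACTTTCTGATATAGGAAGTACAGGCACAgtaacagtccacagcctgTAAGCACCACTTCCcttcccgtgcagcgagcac
Ms4a6b (chr19:11518309-11518608, plus strand): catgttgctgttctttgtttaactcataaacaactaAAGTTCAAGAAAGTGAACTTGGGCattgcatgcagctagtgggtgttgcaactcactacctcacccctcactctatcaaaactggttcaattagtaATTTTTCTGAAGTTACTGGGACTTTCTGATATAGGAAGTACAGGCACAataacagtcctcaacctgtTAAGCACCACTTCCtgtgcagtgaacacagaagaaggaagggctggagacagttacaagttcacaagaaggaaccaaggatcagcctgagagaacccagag
Ms4a4b (chr19:11443308-11443607, plus strand): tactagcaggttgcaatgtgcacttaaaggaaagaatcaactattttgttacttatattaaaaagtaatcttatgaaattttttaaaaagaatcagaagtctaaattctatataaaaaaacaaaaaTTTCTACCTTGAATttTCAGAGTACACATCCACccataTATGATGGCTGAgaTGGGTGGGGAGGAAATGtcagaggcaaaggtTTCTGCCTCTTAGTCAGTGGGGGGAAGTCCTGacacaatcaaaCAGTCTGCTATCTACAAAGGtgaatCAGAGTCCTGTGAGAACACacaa
Ms4a4c (chr19:11407411-11407710, plus strand): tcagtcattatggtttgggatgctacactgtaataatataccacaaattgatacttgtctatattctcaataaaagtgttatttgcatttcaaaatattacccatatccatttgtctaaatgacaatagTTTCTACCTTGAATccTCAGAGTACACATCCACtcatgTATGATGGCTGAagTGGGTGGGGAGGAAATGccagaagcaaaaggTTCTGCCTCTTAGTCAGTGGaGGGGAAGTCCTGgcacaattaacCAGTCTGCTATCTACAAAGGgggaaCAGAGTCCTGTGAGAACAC

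The Ms4a6c and Ms4a6b windows were identical at 192 of 225 aligned bases (85.3%), but shifted against each other, with 150 gap positions. Their longest shared run was 48 bases. It starts at position -49 from the start site of Ms4a6c and at position -118 from that of Ms4a6b. The Ms4a4b and Ms4a4c windows were identical at 226 of 290 aligned bases (77.9%), with 8 shared runs and a longest run of 20 bases. No other pair among the 7 windows of the 6 members with an entry exceeded 65.8%, which was the value of Ms4a6c and Ms4a3. Ms4a7 has 2 windows in the table, and Ms4a6d has no entry.

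These windows lie mostly before the transcription start, and their longest shared run of 48 bases is shorter than a read of 51 bases. They therefore do not show whether reads fit more than 1 of these genes. The transcripts were not compared, and how the authors assigned reads that fit several genes is not given in the sources used here. To that extent the levels of the Ms4a6 genes, and of Ms4a4b and Ms4a4c, remain uncertain.

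Of the 7 members, all were tested, 1 rose (Ms4a6c) and 1 fell (Ms4a4b). Over all 11538 genes tested, 10.3% were called, 5.13% as higher and 5.20% as lower in MLL-AF9 cells. The median log2 change of the members was 0.20, beside 0.29 for all genes tested. The sign of the members' median turned under quantile normalization and under centring on the median of all genes. Their log2 changes ran between -1.69 and 1.20, with 4 above and 3 below 0.

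**Figure D1:**
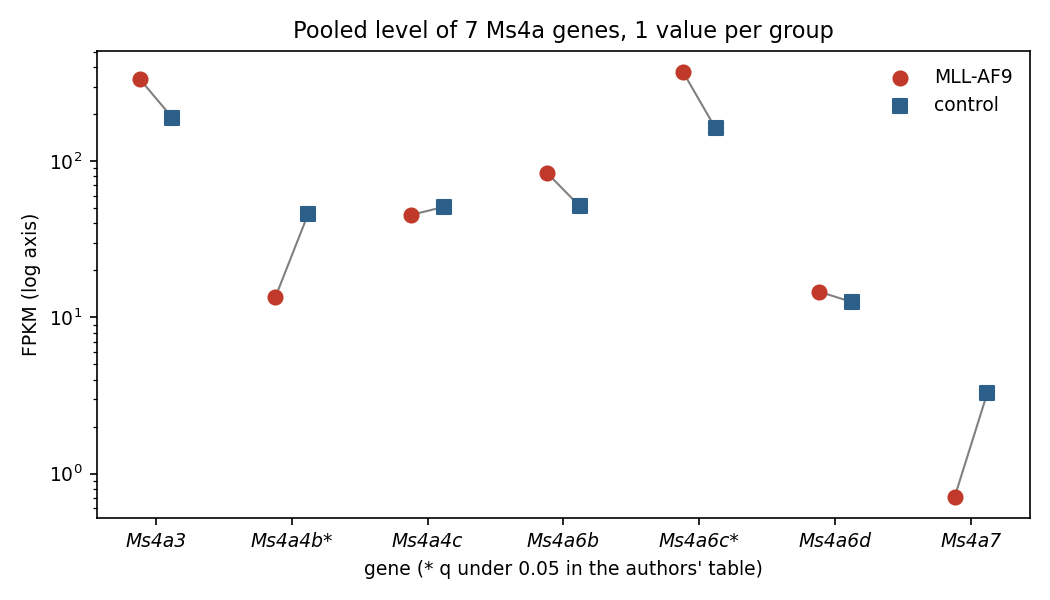
Pooled FPKM (log axis) of the 7 members in MLL-AF9 cells (red circles) and control cells (blue squares), 1 pooled value per group with no error bar. Ms4a6c and Ms4a3 are the highest in both groups, and Ms4a4b and Ms4a7 show the widest gaps with the MLL-AF9 value below.

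Ms4a6c, a gene of monocytes and macrophages, was the highest member in MLL-AF9 cells. It stood at 373 FPKM with MLL-AF9 and 162 FPKM with empty virus, 2.30-fold higher (log2 change 1.20, p = 0.00392, q = 0.0395 in the authors' deposited table). By level it ranked 280th in MLL-AF9 and 603rd in control cells among the genes tested. The log2 change was between 0.90 and 1.21 under all pseudocounts and scalings tried.

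Its close relatives Ms4a6b and Ms4a6d were not called. Ms4a6b was at 84.1 FPKM with MLL-AF9 and 51.5 FPKM with empty virus (log2 change 0.70, q = 0.466 in the authors' deposited table). Ms4a6d was at 14.6 FPKM with MLL-AF9 and 12.6 FPKM with empty virus (log2 change 0.20, q = 0.891 in the authors' deposited table), and its sign turned under quantile normalization and median centring. All 3 Ms4a6 genes thus had the same order of levels in both groups. The ratio of Ms4a6c to Ms4a6b was 4.44 in MLL-AF9 and 3.15 in control cells, and that of Ms4a6c to Ms4a6d was 25.5 and 12.9. Whether the change of Ms4a6c differed from those of its relatives was not tested, since no value per library is at hand.

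Ms4a3, which in human cells binds the CDK-associated phosphatase KAP, came next below Ms4a6c in MLL-AF9 cells and was the highest member in control cells. It stood at 337 FPKM with MLL-AF9 and 190 FPKM with empty virus (log2 change 0.82, p = 0.116, q = 0.389 in the authors' deposited table) and was not called. Its level ranked 301st in MLL-AF9 and 508th in control cells. Ms4a3 and Ms4a6c together held 81.8% of the summed FPKM of the 7 members in MLL-AF9 cells and 68.2% in control cells. The sum of the members was 869 FPKM with MLL-AF9 and 517 FPKM with empty virus.

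Ms4a4b, known in mouse T cells to associate with the receptor GITR, fell. It stood at 13.5 FPKM with MLL-AF9 and 45.8 FPKM with empty virus, 3.39-fold lower (log2 change -1.69, p = 0.00360, q = 0.0370 in the authors' deposited table). Its rank by level was 6246th in MLL-AF9 and 2129th in control cells. Its neighbour and closest relative by start region, Ms4a4c, was at 45.3 FPKM with MLL-AF9 and 51.1 FPKM with empty virus (log2 change -0.17, q = 0.892 in the authors' deposited table). The ratio of Ms4a4c to Ms4a4b was 3.35 in MLL-AF9 and 1.12 in control cells, so the levels of the 2 genes lay apart in MLL-AF9 cells and close together in control cells.

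Ms4a7, a macrophage member, had the lowest level of the 7, with MLL-AF9 and with empty virus alike. It was listed at 0.712 FPKM with MLL-AF9 and 3.28 FPKM with empty virus, a log2 change of -1.32. Its p-value was 0.0351 and its q-value 0.184 in the authors' deposited table, so it was not called. With a pseudocount of 0.1 FPKM the log2 change was -2.06.

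The q-values of the called members were 0.0370 and 0.0395 in the authors' deposited table, and at a threshold of 0.01 none of the 7 was called. At an unadjusted p under 0.05 there were 3, Ms4a4b, Ms4a6c and Ms4a7. The share of all genes tested that pass either of these thresholds was not computed, so neither count can be read as high or low.

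**Figure D2:**
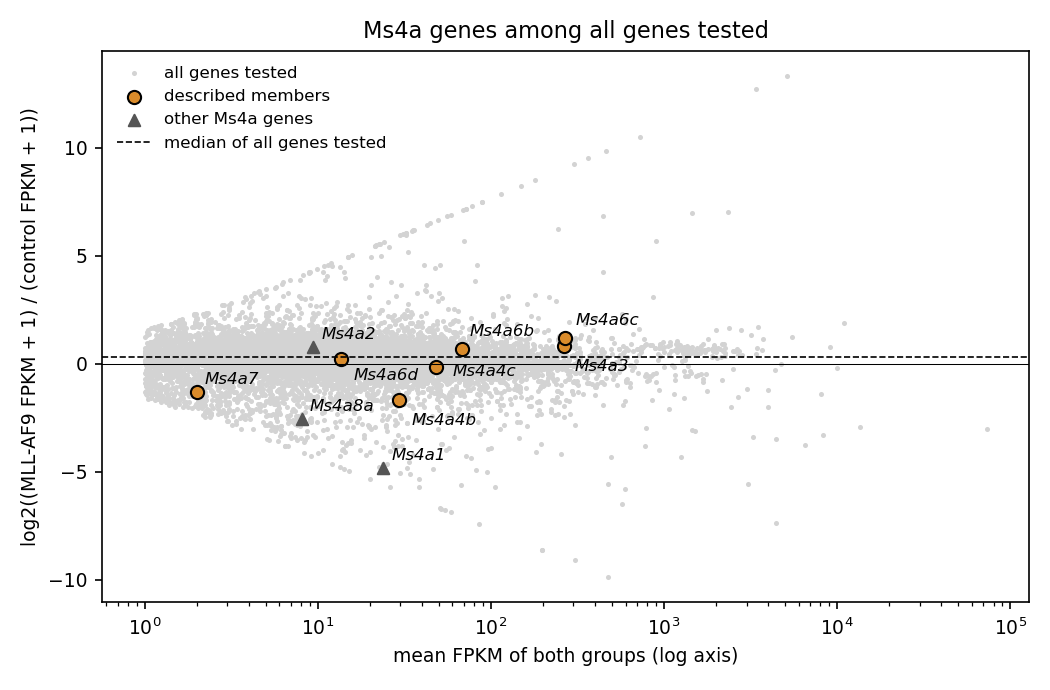
Log2 change of every gene tested (grey) against its mean FPKM (log axis), with the 7 members in orange and 3 other Ms4a genes as triangles. The members lie within the bulk of genes around the median of 0.29, between -1.69 for Ms4a4b and 1.20 for Ms4a6c, and Ms4a1 lies far below them at -4.85. The straight upper and lower edges are genes listed at 0 in 1 group.

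The other genes of the family bear on what the 7 members share. RefSeq places 21 Ms4a genes in the cluster, of which 18 had a row, 2 of them under an older symbol. Ms4a4a, Ms4a12 and Ms4a14 were not matched. Of the 18, 6 were listed at 0 in both groups and 10 were tested. The members made up 98.3% of the summed FPKM of the 16 rows named Ms4a in MLL-AF9 cells and 88.2% in control cells.

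Of the 3 tested Ms4a genes outside the members, Ms4a1 and Ms4a8a fell. Ms4a1 was at 0.669 FPKM with MLL-AF9 and 47.3 FPKM with empty virus, 70.6-fold lower (q = 2.04e-11 in the authors' deposited table). Ms4a8a, known from alternatively activated mouse macrophages, was at 1.63 FPKM with MLL-AF9 and 14.5 FPKM with empty virus, 8.90-fold lower (q = 0.00492 in the authors' deposited table). Ms4a2 was at 11.99 FPKM with MLL-AF9 and 6.74 FPKM with empty virus and was not called (q = 0.609 in the authors' deposited table).

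Tmem176b, a CD20-like gene of myeloid cells outside the cluster, was at 14.8 FPKM with MLL-AF9 and 49.7 FPKM with empty virus and fell (q = 0.00851 in the authors' deposited table). Its neighbour gene Tmem176a was at 7.28 FPKM with MLL-AF9 and 20.0 FPKM with empty virus, with q = 0.185. The list of other Ms4a and CD20-like genes thus had 5 of 11 matched members tested, of which 3 fell and 0 rose, with a median log2 change of -1.68.

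Read in chromosome order, the changes fell into 2 stretches. This grouping was chosen after the values were seen. In the stretch that ends with Ms4a3, all 5 Ms4a genes tested had a positive log2 change, between 0.20 and 1.20. These are Ms4a6c, Ms4a6b, Ms4a6d, Ms4a2 and Ms4a3, and Ms4a6d was the gene whose sign turned under quantile normalization and centring. Of them, only Ms4a6c was called. Over all genes tested, 68.7% had a positive log2 change, so a run of positive values is not particular to this stretch. In the stretch from Ms4a8a to Ms4a4b, all 5 tested had a negative one, between -4.85 and -0.17. These are Ms4a8a, Ms4a1, Ms4a7, Ms4a4c and Ms4a4b. Of these, Ms4a8a, Ms4a1 and Ms4a4b were called, while 5.20% of all genes tested were called as lower. Because the stretch was chosen after its values were seen, this is no test of it. The summed FPKM of the first-named 5 was 821 in MLL-AF9 and 423 in control cells. That of the second 5 was 61.9 in MLL-AF9 and 162 in control cells.

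The turn lies between the neighbours Ms4a4b, which fell, and Ms4a6c, which rose. It is not a clean border for every gene: Gm8369, a protein-coding gene between Ms4a6c and Ms4a6b, was at 1.71 FPKM with MLL-AF9 and 5.70 FPKM with empty virus (q = 0.244 in the authors' deposited table). Of the 10 protein-coding genes that flank the cluster, 5 on each side, 5 were tested and 0 were called by the authors' q-value. Over all genes tested, 10.3% were called, so 0 of 5 does not set the flanking genes apart from other genes. None of the 5 flanking genes tested had an unadjusted p under 0.05 either, while Ptgdr2 and Oosp2, both under the minimum level, did. No share of all genes tested was computed at that p-value. The tested ones had log2 changes between 0.51 for Mrpl16 and 1.24 for Oosp1. Order was read from build GRCm38.p6, whereas the authors used mm9.

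**Figure D3:**
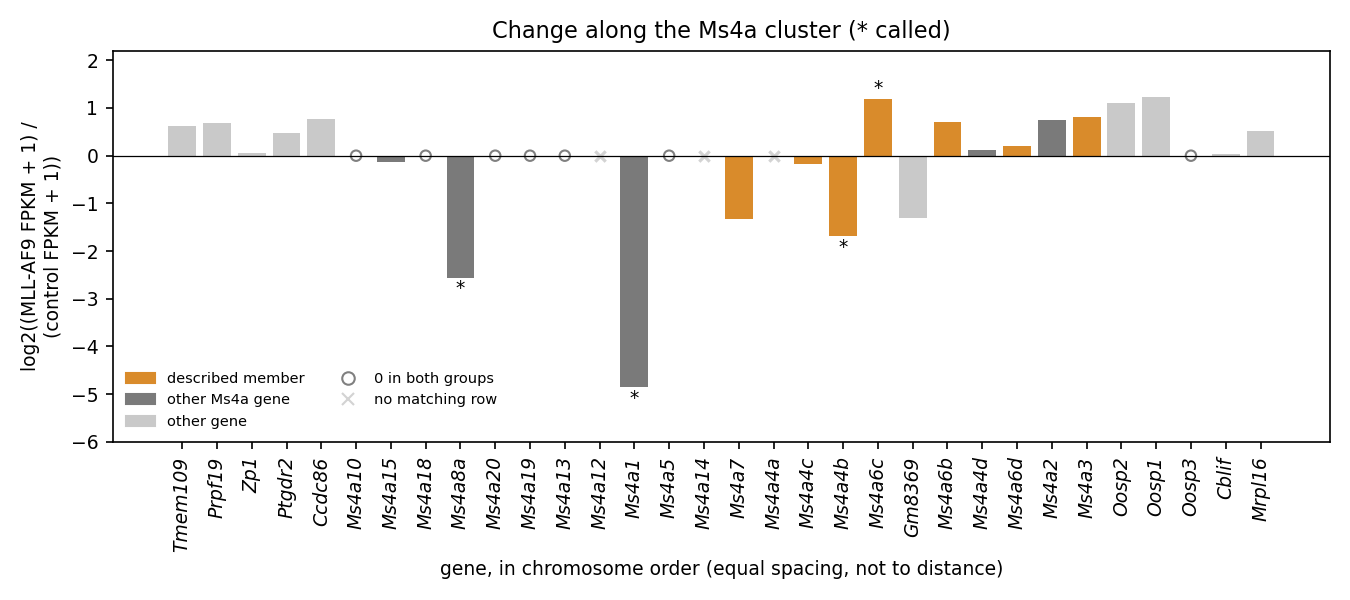
Log2 change of each gene in chromosome order, at equal spacing, for the Ms4a cluster and 5 protein-coding genes on each side. Orange bars are the 7 members, dark bars other Ms4a genes, light bars other genes, and stars mark called genes. Bars point down from Ms4a8a to Ms4a4b and up from Ms4a6c to Ms4a3, apart from Gm8369 and genes at or near 0.

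Members were set beside marker genes of the cells they are known from. In pooled bulk RNA, fewer cells of a type and less RNA per cell cannot be told apart. All 8 T and NK cell markers fell, by 8.09-fold to 37.7-fold, and none was at 0. Their summed level was 4.87 FPKM with MLL-AF9 and 70.8 FPKM with empty virus. The 3.39-fold fall of Ms4a4b was smaller than that of every marker on the list. Its level was above that of every marker on the list in both groups, the highest marker being Lck at 1.92 FPKM in MLL-AF9 cells and Cd3d at 16.7 FPKM in control cells. The part of T cells in the fall of Ms4a4b was not tested.

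All 6 B cell markers fell, by 7.36-fold to 160-fold, and Ms4a1 lay within that range. The macrophage list had 9 of 10 genes tested, of which 6 fell and 0 rose, with a median log2 change of -1.73. The complement genes C1qa, C1qb and C1qc, which macrophages make, were 9.80-fold to 13.2-fold lower in MLL-AF9 cells, and the adhesion receptor Vcam1 was 5.82-fold lower. The receptor Csf1r was at 82.4 FPKM with MLL-AF9 and 81.3 FPKM with empty virus, and the macrophage protein gene Emr1 (Adgre1, F4/80) at 35.3 and 20.7 FPKM, without a call. The lysosomal protein gene Cd68, at 120 FPKM with MLL-AF9 and 87.6 FPKM with empty virus, was not called either. The summed macrophage list was 247 FPKM with MLL-AF9 and 268 FPKM with empty virus, and none of its genes was at 0. Cd68, Csf1r and Emr1 made up most of that sum in both groups, whereas the 6 called genes were each 5.82-fold to 13.2-fold lower in MLL-AF9 cells. The part of macrophages in the values of Ms4a7 and Ms4a8a was not tested.

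Of 10 granulocyte-monocyte progenitor genes, the cells in which Ms4a3 is known, 2 rose and 0 fell, with a median log2 change of 0.81. The 2 were the repressor Gfi1 and the surface protein gene Cd34. Over all genes tested, 10.3% were called, 5.13% as higher, and the median log2 change was 0.29. In a list of 10 genes, 2 calls lie too near that share to be read as a trait of the list. The granule protease genes that go with Ms4a3 in such progenitors were not called. Ctsg was at 955 FPKM with MLL-AF9 and 374 FPKM with empty virus (p = 0.0227, q = 0.139), Prtn3 at 1024 and 550 FPKM (q = 0.432), and Elane at 1488 and 904 FPKM (q = 0.597), all in the authors' deposited table. The regulator gene Irf8 was at 198 FPKM with MLL-AF9 and 90.7 FPKM with empty virus (p = 0.0446, q = 0.214 in the authors' deposited table). At an unadjusted p under 0.05 there were 6 of the 10, with Gfi1, Cd34, Ctsg and Irf8 higher and Cebpe and Fcgr3 lower. The share of all genes tested under that p-value was not computed, so this count is not read as a trait of the list either. The log2 change was below 0 for 4 of the 10, none of them called. The granulocyte regulator gene Cebpe was at 83.7 FPKM with MLL-AF9 and 188 FPKM with empty virus (p = 0.0247, q = 0.148), and the Fc receptor gene Fcgr3 at 130 and 270 FPKM (p = 0.0471, q = 0.222), both in the authors' deposited table. Mpo was at 627 FPKM with MLL-AF9 and 927 FPKM with empty virus (q = 0.772 in the authors' deposited table), and Kit at 12.9 and 14.3 FPKM.

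Of 8 classical monocyte genes, 2 had an unadjusted p under 0.05, for which the share of all genes tested was not computed. None of the 8 was called from the authors' q-value, beside 10.3% of all genes tested. The median log2 change of the 8 was -0.92, with 7 of 8 below 0, and their summed level was 4189 FPKM with MLL-AF9 and 18530 FPKM with empty virus. The lysozyme gene Lyz2, at 890 FPKM with MLL-AF9 and 12233 FPKM with empty virus (p = 0.0141, q = 0.101 in the authors' deposited table), made up most of that sum in control cells. The fibronectin gene Fn1 was at 47.6 FPKM with MLL-AF9 and 126 FPKM with empty virus (p = 0.0292, q = 0.164 in the authors' deposited table). Chi3l3 was at 1352 FPKM with MLL-AF9 and 3968 FPKM with empty virus (q = 0.465 in the authors' deposited table). Vcan was at 0.555 FPKM with MLL-AF9 and 3.97 FPKM with empty virus. Its q-value is listed as 1, which may stand for a gene the authors did not test, so its lack of a call is not a negative result. The marker Ly6c2 was at 1245 FPKM with MLL-AF9 and 1566 FPKM with empty virus, and the chemokine receptor Ccr2 at 111 and 153 FPKM. Of the 4 members given above as known from monocytes and macrophages, Ms4a6c rose, while Ms4a6b (log2 change 0.70), Ms4a6d (0.20, of unstable sign) and Ms4a7 (-1.32) were not called. Ms4a4c, which was not assigned to a cell type here, was not called either (log2 change -0.17). All 7 late granulocyte genes fell, with a median of -3.95.

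Of 8 interferon response genes tested, 7 fell and 0 rose, with a median log2 change of -2.36. The antiviral gene Rtp4 was at 1.21 FPKM with MLL-AF9 and 26.5 FPKM with empty virus. The regulator Irf7, at 27.2 and 51.4 FPKM, fell least among those called, by a log2 change of -0.89.

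**Figure D4:**
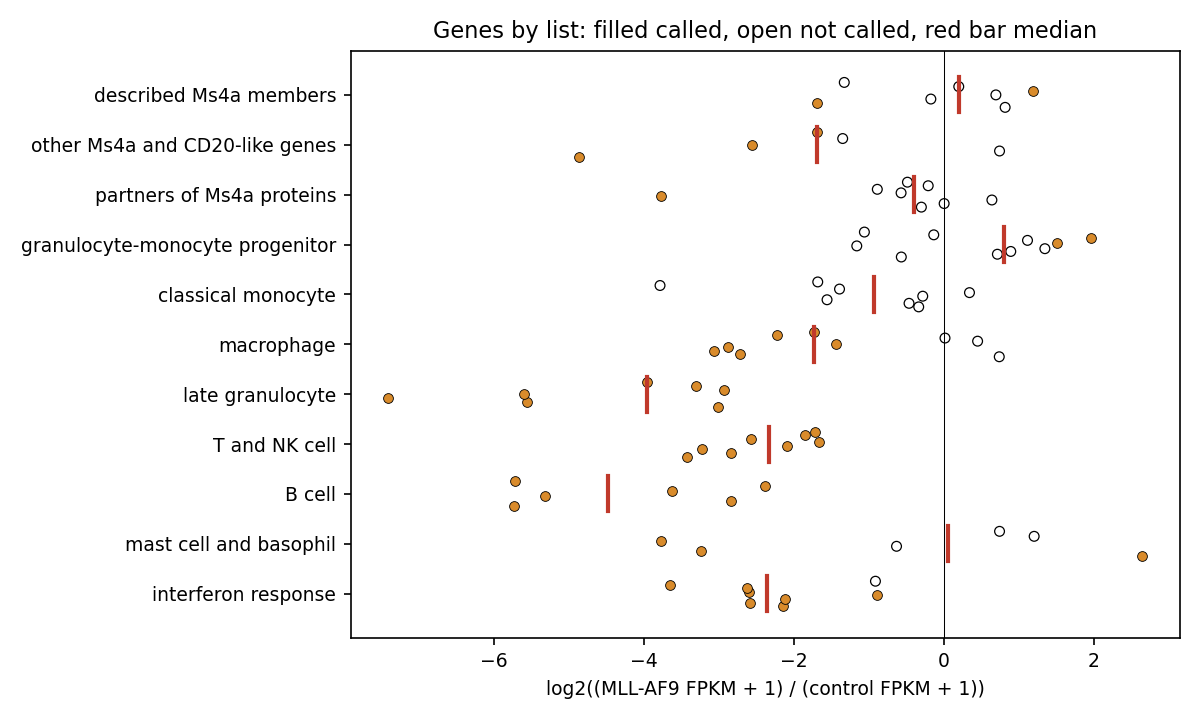
Log2 changes of tested genes by list, with called genes filled, others open and a red bar at the list's median. Members spread on both sides of 0 around a median of 0.20, whose sign turned under 2 scalings, while late granulocyte, T and NK cell, B cell and interferon response genes all lie below 0.

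Of 8 genes of known or proposed partner proteins, 1 fell and 0 rose, a share near the 10.3% called among all genes tested, and their median log2 change was -0.39. Cdkn3, which encodes KAP, the partner of human MS4A3, was at 28.5 FPKM with MLL-AF9 and 35.2 FPKM with empty virus (q = 0.838 in the authors' deposited table). Cdk2, the kinase KAP acts on, was at 66.9 FPKM with MLL-AF9 and 66.5 FPKM with empty virus. Tnfrsf18, which encodes GITR, was at 21.1 FPKM with MLL-AF9 and 13.2 FPKM with empty virus (q = 0.617 in the authors' deposited table).

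The gene that fell was Fcer1a, the IgE-binding chain that pairs with the Ms4a2 product, at 1.12 FPKM with MLL-AF9 and 27.9 FPKM with empty virus. The shared gamma chain gene Fcer1g was at 648 FPKM with MLL-AF9 and 959 FPKM with empty virus. The 3 subunit genes of the IgE receptor thus showed unlike values, with Fcer1a called lower and Ms4a2 and Fcer1g not called. In the mast cell and basophil list of 6, which also holds Ms4a2 and Fcer1a, Hdc fell and Cpa3 rose, and the summed level was 396 FPKM with MLL-AF9 and 451 FPKM with empty virus. Clec7a (dectin-1, a partner of human MS4A4A) was at 64.3 FPKM with MLL-AF9 and 120 FPKM with empty virus, with q = 0.333. Trem2 was at 10.8 FPKM with MLL-AF9 and 12.6 FPKM with empty virus, and its adaptor gene Tyrobp at 1361 and 1901 FPKM, without a call.

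For each called member, the 2 named genes nearest in level were sought by the distance of log2(FPKM + 1) in both groups. This rests on 2 pooled values per gene. Nearest to Ms4a6c were Glipr1, at 393 FPKM with MLL-AF9 and 178 FPKM with empty virus (distance 0.15), and the small nucleolar RNA Snora41, at 335 and 156 FPKM (distance 0.17). Nearest to Ms4a4b were 1600010M07Rik, at 13.8 FPKM with MLL-AF9 and 44.6 FPKM with empty virus (distance 0.048), and Slc25a24, at 12.8 and 47.9 FPKM (distance 0.098). Of these 4, Slc25a24 was called (q = 0.00578), and Glipr1, Snora41 and 1600010M07Rik were not (q = 0.179, 0.625 and 0.140 in the authors' deposited table).

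The 7 start windows were searched on both strands for short motifs. The interferon-type element GAAANNGAA was found in 4 of the 7, which belong to Ms4a6c, Ms4a6b and Ms4a7 (both windows), while 8.56% of all 32851 RefSeq windows hold it. In Ms4a6c and Ms4a6b it begins at positions -133 and -206 from the start site, reads GAAAGTGAA in both and lies inside a run that the pair shares, shown in capitals above. These 2 matches are thus not independent of each other. The C/EBP motif TTGCNNAA, whose other strand reads TTNNGCAA, was found in the Ms4a3 window, 41 bases after the start site, and in 10.8% of all windows. No match was found for the PU.1 motifs GAGGAAGT (3.20% of all windows) and AGAGGAA (10.4%), which overlap each other, for the GATA motif AGATAA (11.2%) or for TGATTTAT, a Hoxa9-Meis motif (0.977%). A match describes these letters in these windows and not binding.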

How the data were processed

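PolyA RNA of bone marrow mononuclear cells was sequenced as single reads of 51 bp, per the labels' protocols, which speak of duplicates per genotype although 3 RNA samples per group are listed. The tools TopHat 1.4.1, Cufflinks 1.3.0, Bowtie 0.17.2, CASAVA 1.8.2 and MACS 1.4 and the build mm9 are named, without their roles, per the submitters' processing notes. For RNA, the authors deposited 1 pooled FPKM value for each group, a unit inferred from these tools and the values. The p-value and q-value columns are the authors' own, and per the file headers the test behind them is unknown.

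The planned fit on values per library could not be run, so calls rest on the authors' q-value, and no new test was computed. S100a9, listed at 0 in control cells, was not used, and 1134 rows are unnamed assembled loci. Total depth is unknown. Of 1327 rows above 0 and under 0.1 FPKM in both groups, 206 had the same ratio of 1.246 (3 decimals), MLL-AF9 over control. If these rows hold equal numbers of reads in both groups, which the table cannot show, the MLL-AF9 values would rest on 0.803 times the reads.

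Members and lists were chosen with earlier results of these data known. The 10 lists hold 87 entries, of which 82 were matched, 2 through an older symbol. The genes named are all members, every other Ms4a row, called genes and examples of the lists, and the 2 nearest genes of each called member. Start windows come from RefSeq (GRCm38.p6) and were aligned globally (match 1, mismatch -1, gap opening -3, extension -1). The regions of 5hmC, 1 library per group, are in mm9 and were not used, since positions of the genes in that build are not at hand, and the planned protein comparison was not run. Adjustment, scaling and the read-worth step were tested on simulated data. Tools were Python 3.11.15, numpy 2.4.6, pandas 2.3.3, scipy 1.17.1, Biopython 1.88 and matplotlib 3.10.9.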

Additional observations from a re-analysis of the deposited data

How the results depend on the processing

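The members' median log2 change of 0.20 turned to -0.067 under quantile normalization and to -0.092 when centred on the median of all genes, in both cases through Ms4a6d, which is the median gene and had the same values. It was 0.084 with equal sums outside the 100 highest genes of either group and 0.45 for members with a mean of at least 5 FPKM, which leaves out Ms4a7. The median of all genes tested was 0.29 as deposited and 0.086 after quantile normalization. At a q-value threshold of 0.01 the number of members called was 0, against 2, and that of progenitor genes 1, against 2. With a mean of at least 5 FPKM, 3 T and NK cell genes were called, against 8. The others, such as Cd3e at a mean of 4.93 FPKM, lay under that minimum and so were not counted. The other counts of calls stayed within 1.5 times under the thresholds, minimums and adjustment tried. Alternatives for the lists other than the members and the other Ms4a and CD20-like genes were chosen after seeing the data. No paired analysis was possible because the table holds 1 pooled value per group, and leaving out single libraries was not possible for the same reason. The pooled values hide the spread between libraries, so no call here can be checked against it.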

Other observations

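AW112010, a noncoding RNA gene between Ms4a18 and Ms4a8a, was chosen after its values were seen. It was at 5.40 FPKM with MLL-AF9 and 44.5 FPKM with empty virus, 8.24-fold lower (q = 0.00246 in the authors' deposited table). Its log2 change of -2.83 lay in the direction of the nearby Ms4a8a. Cd6 and Cd5, lymphocyte surface genes beyond the flanking genes on the same side, were at 0.202 and 1.45 FPKM in MLL-AF9 and at 3.71 and 3.99 FPKM in control cells. Of these, Cd6 was called (q = 0.000186) and Cd5 was not (q = 0.346 in the authors' deposited table).

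Ms4a3 and Ms4a2 are neighbours known from different cells, progenitors and mast cells or basophils. Their ratio of levels was 28.1 in MLL-AF9 and 28.2 in control cells, so both had nearly the same ratio between groups, 1.77 for Ms4a3 and 1.78 for Ms4a2 (MLL-AF9 over control). Neither was called, and the pair was noticed after the values were seen.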
